A study of Mus musculus with 8 samples.

Results

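The distal chromosome 7 imprinted cluster was examined in germline stem (GS) cell lines, as 9 genes of the 31010 in the deposited expression table: H19, Igf2, Cdkn1c, Kcnq1, Kcnq1ot1, Phlda2, Slc22a18, Ascl2 and Tssc4. They were chosen by name and not by a cutoff on their values, although earlier results of these data were known. GS cells are self-renewing cultures of mouse spermatogonia, kept with the growth factors GDNF and FGF2. The 4 control-F1 lines (29, 37, 44 and 45) came from mice conceived by natural mating, and the 4 ICSI-F1 lines (11, 17, 20 and 21) from mice conceived by intracytoplasmic sperm injection, the delivery of a single sperm into an egg by needle. All 8 lines are labelled wild type and B6, and they were started from spermatogonia that carried the surface protein CD9 and were sorted from the testes of mature F1 males. They share the same culture medium and were plated on gelatin before sampling to remove feeder fibroblasts. The share of fibroblasts removed is not given. In the study's supplement the same numbers stand for individual F1 mice, so each line appears to come from a different mouse. Litters are not given, and p-values measure the spread between lines. Titles came in 2 spellings, called label form 1 (control lines 29 and 37, ICSI lines 11 and 17) and label form 2 (control lines 44 and 45, ICSI lines 20 and 21). The submitters' processing notes name different software versions for the forms, whereas the paper's methods give the same versions for all lines. What else separated the forms is not stated.

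The cluster holds neighbouring domains with opposite parental logic. In the H19-Igf2 domain, a control region methylated on the paternal chromosome directs expression of the noncoding RNA H19 from the maternal copy and of the growth factor gene Igf2 from the paternal copy, through the insulator protein CTCF. In the Kcnq1 domain, a control region methylated on the maternal chromosome serves as the promoter of the long antisense RNA Kcnq1ot1, which is made from the paternal copy and silences surrounding genes in cis, among them Cdkn1c, Phlda2, Slc22a18, Ascl2 and Tssc4. Male germ cells erase these marks and set the paternal form on both chromosomes. Bulk RNA-seq as analysed here does not separate the parental copies, so every value is a sum over them, and fewer cells of a type cannot be told apart from less RNA per cell.

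Expression was measured as FPKM (fragments per kilobase of transcript, scaled to library size), a level per length that permits comparison between genes. Of the 9 genes, 7 had a mean of at least 1 FPKM and entered the test across 12000 genes, and Kcnq1ot1 and Kcnq1 lay below it. H19 was the most abundant with a mean of 146 FPKM, above 99.3% of the genes detected in any line. Igf2 (27.8 FPKM), Cdkn1c (21.7 FPKM) and Tssc4 (21.4 FPKM) came next, followed by Phlda2 (4.01 FPKM), Ascl2 (1.87 FPKM), Slc22a18 (1.02 FPKM), Kcnq1ot1 (0.0995 FPKM) and Kcnq1 (0.0211 FPKM). Neighbours in this order were compared within lines by an exact two-sided sign-flip permutation test on log2(FPKM + 1), adjusted over the 8 neighbouring pairs. Igf2 was above Cdkn1c in 4 of 8 lines (adjusted p = 0.929), and Cdkn1c was above Tssc4 in 4 of 8 lines (adjusted p = 0.969), so these 3 genes were not ordered beyond their spread. H19 exceeded Igf2 in 8 of 8 lines and Tssc4 exceeded Phlda2 in 8 of 8 (both with an adjusted p = 0.0208 in the exact test). The remaining neighbours differed with adjusted p-values of 0.0208 to 0.0417 in the same test, but not all of them in every line. Phlda2 exceeded Ascl2 in 6 of 8 lines and Ascl2 exceeded Slc22a18 in 7 of 8. Slc22a18 exceeded Kcnq1ot1 in 8 of 8, and Kcnq1ot1 exceeded Kcnq1 in 7 of 8. Per line, Kcnq1ot1 had 29 to 475 reads and Slc22a18 had 29 to 86. FPKM divides these by annotated lengths of 93092 and 1699 bases. Kcnq1 had 0 to 6 reads per line, so its place rests on few reads.

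**Figure D1:**
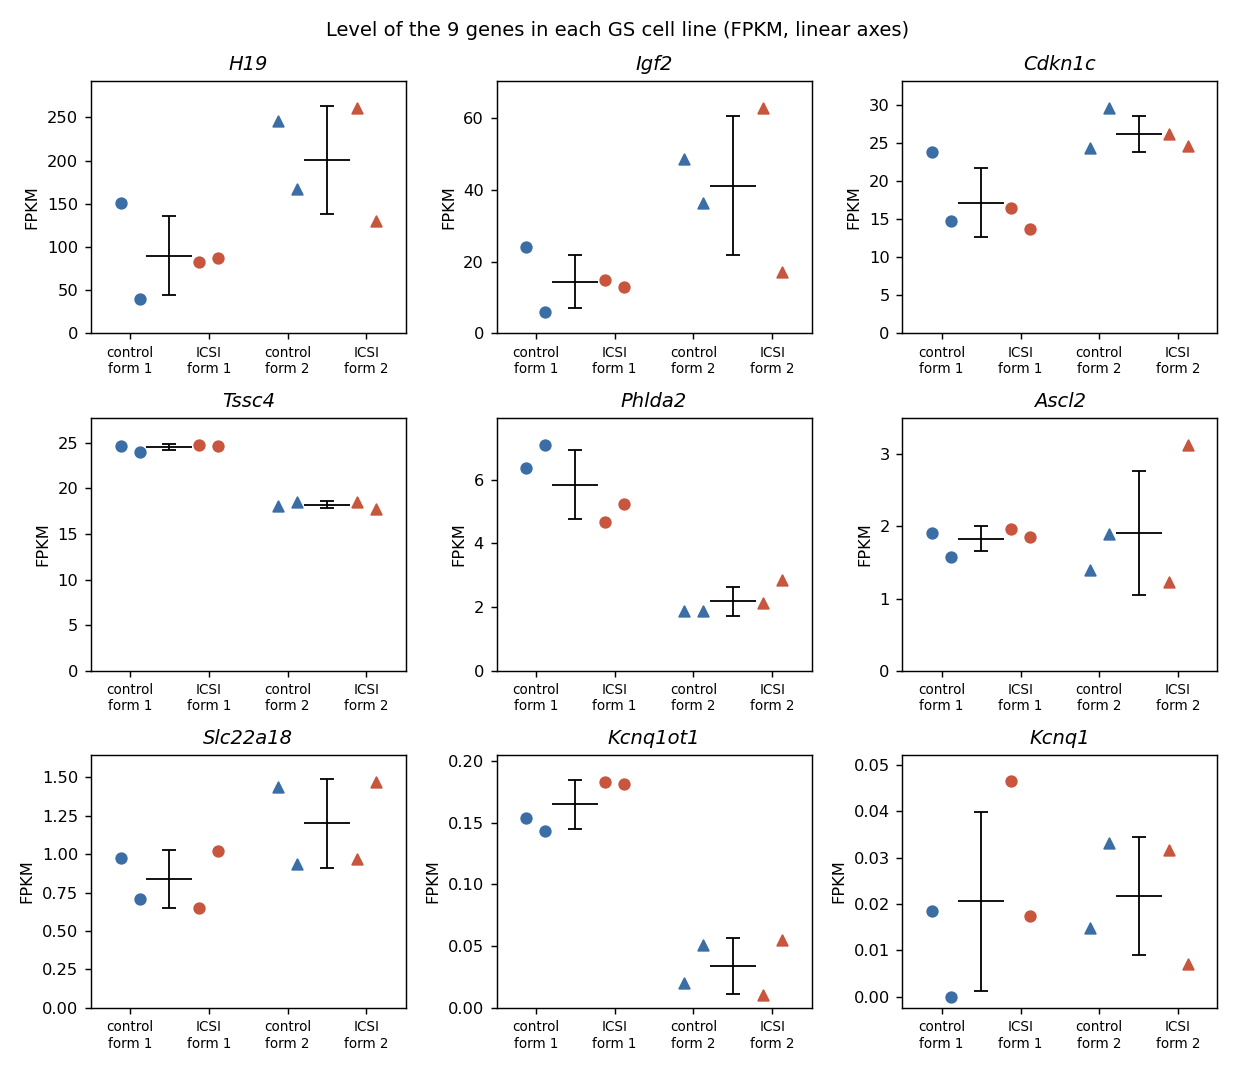
Level of each of the 9 genes in FPKM on a linear axis, one panel per gene, for control-F1 lines (blue) and ICSI-F1 lines (red) of label form 1 (circles) and label form 2 (triangles), with the mean and SD of each form as a black bar. Tssc4, Phlda2 and Kcnq1ot1 lie lower in all form 2 lines, Cdkn1c lies higher in them, and the control and ICSI points overlap for every gene.

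H19 lies at chr7:142575529-142578143 on the minus strand (mm10) and encodes a spliced noncoding RNA that is also the precursor of miR-675. The mature miRNAs lie inside an annotated H19 exon, at chr7:142577112-142577133 and chr7:142577078-142577099. They are shown because H19 was the most abundant of the 9 genes and these are its processed products. The deposited table has 0 rows for the miRNA itself, so H19 values do not measure it. The sequences are from RefSeq (GRCm38.p6), 5′ to 3′, with the seed (bases 2 to 8) in capitals.
miR-675-5p: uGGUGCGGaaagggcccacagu
miR-675-3p: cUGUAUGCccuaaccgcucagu

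H19 was at 151, 39.4, 246 and 167 FPKM in control lines 29, 37, 44 and 45, in that order. It was at 82.2, 87.7, 261 and 130.1 FPKM in ICSI lines 11, 17, 20 and 21. The groups overlapped throughout, since control lines held both the lowest value and the second highest. The means were 151 ± 85.2 FPKM (SD, n = 4) in control-F1 and 140.2 ± 83.2 FPKM (SD, n = 4) in ICSI-F1. The ICSI-F1 minus control-F1 difference in log2(FPKM + 1) was -0.0022 ± 0.55 (SE), with a 95% interval of -1.24 to 1.24, and an exact two-sided permutation test over 70 assignments gave p = 1.0. Behind these levels stood 2417 to 19874 reads per line, so counting error was small beside the 6.62-fold range between lines.

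Igf2, the fetal insulin-like growth factor, lies at chr7:142650766-142666816 on the minus strand, with its start 88.7 kb from that of H19. Control lines 29, 37, 44 and 45 had 24.0, 6.08, 48.6 and 36.2 FPKM of it. ICSI lines 11, 17, 20 and 21 had 14.8, 12.9, 62.8 and 17.2 FPKM. As with H19, control line 37 was the lowest and ICSI line 20 the highest, and the groups overlapped. The means were 28.7 ± 18.1 FPKM (SD, n = 4) in control-F1 and 26.9 ± 24.0 FPKM (SD, n = 4) in ICSI-F1. The log2 difference was -0.090 ± 0.64 (SE, 95% interval -1.54 to 1.35, exact permutation p = 0.914). The antisense gene Igf2os overlaps Igf2 and was at 0.526 to 1.94 FPKM. The library kit named in the labels is not the one in the methods, so the use of strand in counting is uncertain and reads of the pair may not be separated.

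The paper reports a like androgenetic (paternal-type) methylation pattern at imprinted regions in all F1 GS cells it tested. H19 and Igf2 varied together across the lines. Pearson's r of log2(FPKM + 1) was 0.975 over 8 lines (exact permutation p = 4.96e-05, adjusted p = 0.00139) and Spearman's rho was 0.976 (p = 0.000397, adjusted p = 0.0111). The adjustment covers the 28 pairs among the 7 genes tested and a fibroblast score described below, and this was the only pair that passed by either coefficient. Without control line 37 and ICSI line 20, the most distant from the median of H19, r was 0.950. With the mean of each label form removed, r was 0.944. Igf2 ranked 10 among 11999 genes by that measure of likeness to H19. The ratio of H19 to Igf2 was 6.27, 6.48, 5.06 and 4.62 in control lines 29, 37, 44 and 45. In ICSI lines 11, 17, 20 and 21 it was 5.56, 6.79, 4.16 and 7.57. This ratio spanned a 1.82-fold range, while Igf2 alone spanned 10.3-fold and H19 6.62-fold. Its mean was 5.61 ± 0.904 (SD, n = 4) in control-F1 and 6.02 ± 1.495 (SD, n = 4) in ICSI-F1 (exact permutation p of the log ratio, 0.743).

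**Figure D2:**
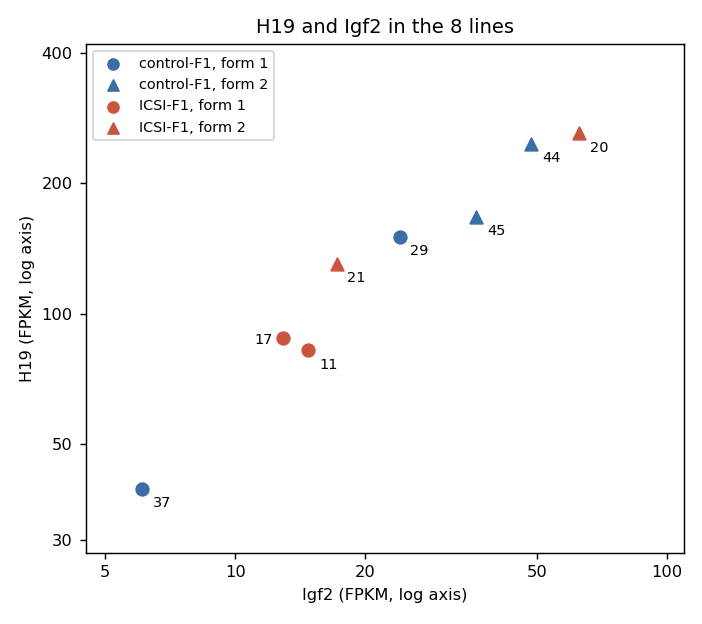
H19 against Igf2 in FPKM on log axes, one point per GS cell line with its number, by group (colour) and label form (shape). The points run from control line 37 (Igf2 6.08, H19 39.4 FPKM) to ICSI line 20 (Igf2 62.8, H19 261 FPKM) along one trend, with r = 0.975 on log2(FPKM + 1).

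Both genes were higher in label form 2 on average, by a difference that missed the threshold. H19 averaged 89.98 ± 45.9 FPKM (SD, n = 4) in form 1 and 201 ± 62.6 FPKM (SD, n = 4) in form 2, a ratio of 2.24. The log2 difference, with the group as covariate, was 1.25 ± 0.39 (SE), with a 95% interval of 0.36 to 2.13 and a limma adjusted p = 0.0612. Igf2 averaged 14.5 ± 7.41 FPKM (SD, n = 4) in form 1 and 41.2 ± 19.3 FPKM (SD, n = 4) in form 2, and the log2 difference was 1.45 ± 0.46 (SE, 95% interval 0.40 to 2.49, limma adjusted p = 0.0630). The forms overlapped for both genes, because form 1 control line 29 exceeded form 2 ICSI line 21. With the fibroblast score as a covariate both differences passed, at limma adjusted p = 0.00968 for H19 and 0.0178 for Igf2. Without ICSI line 21 they also passed, at 0.0369 and 0.0175, and without control line 29 H19 passed, at 0.0370.

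Fibroblast gene levels also varied between lines and are given beside those of H19 and Igf2. Of 24 fibroblast markers, 22 were above the 1 FPKM minimum and 0 were at 0 in every line. Their summed level was 289.6 to 1260 FPKM in control-F1 and 381 to 706 FPKM in ICSI-F1. It was 375 to 1260 FPKM in form 1 and 289.6 to 1064 FPKM in form 2. The fibroblast score, the mean log2(FPKM + 1) over the 24 genes, was highest in control line 29 (4.83) and lowest in control line 45 (3.01). Its correlation with H19 was r = 0.523 over 8 lines (exact permutation p = 0.187, adjusted p = 0.374; Spearman's rho = 0.476, p = 0.243, adjusted p = 0.524). With the form means removed r was 0.804, and it was 0.696 for Igf2, both given as descriptions. The score was 4.83, 3.32, 3.37 and 3.82 in form 1 lines 29, 37, 11 and 17. H19 there was at 151, 39.4, 82.2 and 87.7 FPKM. In form 2 lines 44, 45, 20 and 21 the score was 4.60, 3.01, 4.19 and 3.44. Their H19 was at 246, 167, 261 and 130 FPKM. The part of fibroblast RNA in the H19 and Igf2 levels was not tested.

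Kcnq1ot1, the antisense RNA of the Kcnq1 domain, is annotated as an unspliced transcript of 93092 bases at chr7:143203458-143296549 on the minus strand. Its reads numbered 378 in control line 29 and 332 in line 37, against 60 in line 44 and 210 in line 45. They numbered 447 in ICSI line 11 and 475 in line 17, against 29 in line 20 and 177 in line 21. Every form 1 line was above every form 2 line, although the form 2 libraries were deeper (31786326 to 43413306 recovered reads, against 24218938 to 26108270 in form 1). Scaled to library size, the mean was 15.4 ± 1.85 CPM (SD, n = 4) in form 1 and 3.16 ± 2.09 CPM (SD, n = 4) in form 2. In FPKM the form 1 mean was 4.85 times that of form 2. Since the gene was below the FPKM minimum, it was tested by limma-voom on the recovered reads of 15695 genes, a fit added after the values were seen. The log2 difference between forms was -2.52 ± 0.44 (SE, 95% interval -3.51 to -1.53, adjusted p = 0.0174), where 11.7% of those genes passed. Leaving out control line 37, ICSI line 11 or ICSI line 17 ended the call, with adjusted p = 0.0617, 0.0690 and 0.0599, and log2 differences of -2.58, -2.47 and -2.47. Those fits called 6, 3 and 90 genes in all. Reads of Kcnq1ot1 and of Kcnq1, which it overlaps, may not be separated if strand was not used in counting. Control-F1 and ICSI-F1 overlapped, with a log2 difference of -0.028 ± 0.95 (SE, 95% interval -2.15 to 2.09, exact permutation p = 0.714 on the FPKM scale).

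Kcnq1, a potassium channel gene that Kcnq1ot1 overlaps in antisense, lies at chr7:143106362-143427042 on the plus strand. It had 2, 0, 2 and 6 reads in control lines 29, 37, 44 and 45, and 5, 2, 4 and 1 reads in ICSI lines 11, 17, 20 and 21. The level was at most 0.0464 FPKM in any line. The 0 reads of control line 37 allow up to 0.0294 FPKM at 3 reads, a limit that covers counting error only. No difference between groups or forms was detectable at this depth.

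Phlda2, an imprinted inhibitor of placental growth, lies at chr7:143501545-143503150 on the minus strand, at the far end of the cluster. It was at 6.37 FPKM in control line 29 and 7.08 in line 37, but at 1.88 in both line 44 and line 45. In the ICSI lines it was at 4.68 FPKM in line 11 and 5.22 in line 17, and at 2.13 in line 20 and 2.84 in line 21. The forms were fully separated, with 5.84 ± 1.09 FPKM (SD, n = 4) in form 1 and 2.18 ± 0.457 FPKM (SD, n = 4) in form 2, a 2.67-fold ratio. The log2 difference was -1.10 ± 0.15 (SE, 95% interval -1.45 to -0.75, limma adjusted p = 0.00888), with p = 0.0286 in the exact permutation test, the lowest value possible with 70 assignments. In limma-voom on at least 10 reads the difference was -1.42 (adjusted p = 0.0167), and it missed the threshold without control line 37, ICSI line 11 or ICSI line 17 (adjusted p = 0.0692, 0.0611 and 0.0562). The ICSI-F1 lines did not stand apart from control-F1, with a log2 difference of -0.053 ± 0.39 (SE, 95% interval -0.93 to 0.82). Within form 1 this difference was -0.38 and within form 2 it was 0.27. The test of that contrast between forms gave an interaction of 0.65 ± 0.23 (SE), with an unadjusted p = 0.0259 in limma that did not pass adjustment over all genes.

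Tssc4, which encodes a protein of the spliceosome assembly machinery, lies at chr7:143069249-143071093 on the plus strand. Its lines were the most uniform of the 9 genes. It was at 24.7, 24.0, 24.7 and 24.7 FPKM in the form 1 lines 29, 37, 11 and 17, and at 18.1, 18.5, 18.6 and 17.8 FPKM in the form 2 lines 44, 45, 20 and 21. The means were 24.5 ± 0.325 FPKM (SD, n = 4) in form 1 and 18.2 ± 0.370 FPKM (SD, n = 4) in form 2. The log2 difference of -0.41 ± 0.069 (SE, 95% interval -0.57 to -0.25) passed the test with a limma adjusted p = 0.0129, but it missed the threshold without ICSI line 11 (0.0593) or ICSI line 17 (0.0503). In limma-voom on at least 10 reads the difference was -0.43 (adjusted p = 0.0253). It missed the threshold there without control line 29, 37, 44 or 45, or ICSI line 11 or 17 (adjusted p = 0.0517 to 0.0945). On log2(FPKM + 1) the ICSI difference was 0.0058 ± 0.16 (SE, 95% interval -0.35 to 0.36). Within each form it was 0.020 and -0.0082.

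Promoter sequences are shown for Kcnq1ot1 and Phlda2, which were lower in every form 2 line by a larger fold than Tssc4. RefSeq (GRCm38.p6) held promoters for 6 of the 9 genes, in 9 windows. Each sequence is the 250 bases before a RefSeq start, 5′ to 3′ on the gene's strand. These starts are at 143296547 for Kcnq1ot1 and 143502524 for Phlda2, and the bounds of Phlda2 given above, from GENCODE, reach further upstream and take in the whole window. The window of Tssc4, whose fold was smaller, is not shown, and it too overlaps the GENCODE bounds of its gene. Capitals mark the CCAAT box (CCAAT or its reverse complement ATTGG) and the TATA box (TATAAA or its reverse complement TTTATA), which were searched on both strands and do not overlap here.
Kcnq1ot1, minus strand, chr7:143296548-143296797: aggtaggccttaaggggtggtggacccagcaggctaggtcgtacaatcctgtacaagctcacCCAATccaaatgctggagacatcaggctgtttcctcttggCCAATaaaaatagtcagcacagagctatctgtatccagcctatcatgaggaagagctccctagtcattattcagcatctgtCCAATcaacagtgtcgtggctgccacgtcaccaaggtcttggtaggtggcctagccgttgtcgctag
Phlda2, minus strand, chr7:143502525-143502774: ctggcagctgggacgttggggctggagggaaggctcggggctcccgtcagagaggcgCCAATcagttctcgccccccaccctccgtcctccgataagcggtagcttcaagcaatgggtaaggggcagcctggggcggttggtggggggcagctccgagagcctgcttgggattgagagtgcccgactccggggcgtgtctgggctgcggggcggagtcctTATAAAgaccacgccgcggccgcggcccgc

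The Kcnq1ot1 window held 3 CCAAT boxes, at 188, 148 and 67 bases before the start, all as written on its own strand. Phlda2 had 1 CCAAT box at 193 bases and 1 TATA box at 30 bases before the start. Of 32851 mouse promoter windows of this length, 33.8% held a CCAAT box and 12.4% a TATA box in either orientation. The CG dinucleotide occurred 21 times in the Phlda2 window and 5 times in that of Kcnq1ot1, against a median of 6.0 over all windows. The motifs are matches of letters, and binding was not measured.

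Cdkn1c, an inhibitor of cyclin-dependent kinases that restrains growth, lies at chr7:143458339-143461050 on the minus strand. It went the other way from Phlda2. It was at 23.8, 14.7, 16.4 and 13.7 FPKM in the form 1 lines 29, 37, 11 and 17, and at 24.3, 29.6, 26.2 and 24.6 FPKM in the form 2 lines 44, 45, 20 and 21. The forms did not overlap, but control line 29 lay close to the form 2 range. The means were 17.2 ± 4.57 FPKM (SD, n = 4) and 26.2 ± 2.41 FPKM (SD, n = 4). The log2 difference was 0.61 ± 0.15 (SE, 95% interval 0.26 to 0.95, limma adjusted p = 0.0320). This call was lost without control line 37, 44 or 45 or ICSI line 11, 17 or 20 (adjusted p = 0.0526 to 0.0937). Between ICSI-F1 and control-F1 the log2 difference was -0.19 ± 0.25 (SE, 95% interval -0.75 to 0.37, exact permutation p = 0.629).

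Ascl2, a transcription factor of placental and intestinal progenitors at chr7:142966829-142969264, was at 1.91, 1.58, 1.39 and 1.90 FPKM in control lines 29, 37, 44 and 45. It was at 1.97, 1.86, 1.23 and 3.13 FPKM in ICSI lines 11, 17, 20 and 21, so that line 21 was the highest and line 20 the lowest of all. The ICSI difference was 0.15 ± 0.19 (SE, 95% interval -0.27 to 0.57) and the form difference 0.0014 ± 0.19 (SE, 95% interval -0.43 to 0.43) on the log2 scale. Slc22a18, which encodes a membrane transporter and lies at chr7:143473736-143499334, was at 0.978, 0.708, 1.44 and 0.933 FPKM in control lines 29, 37, 44 and 45. It was at 0.649, 1.02, 0.969 and 1.47 FPKM in ICSI lines 11, 17, 20 and 21. It rested on 29 to 86 reads per line, the fewest of the 7 genes tested. Its ICSI difference was 0.0065 ± 0.17 (SE, 95% interval -0.37 to 0.38) and its form difference 0.26 ± 0.14 (SE, 95% interval -0.068 to 0.58, limma adjusted p = 0.232).

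The study's own question, whether conception by ICSI altered expression in the germline of the offspring, gave no call at this cluster. In limma, 0 of the 7 genes passed at an adjusted p under 0.05, where 0 of 12000 genes (0.0%) passed and 55 had an unadjusted p under 0.05. By limma-voom on the recovered reads, 0 of 8 genes of the cluster and 0 of 15695 genes passed, and 91 genes had an unadjusted p under 0.05. The median log2 difference was -0.0022 over the 7 genes and -0.013 over all genes tested. The FPKM ranges of the groups overlapped for all 9 genes, and they were apart for 0.442% of the genes tested. Among the 7 genes the widest intervals were those of Igf2 and H19, with upper bounds of 1.35 and 1.24 on the log2 scale, against 0.36 for Tssc4. With label form as covariate the differences were the same and the 95% intervals narrower for 6 of the 7, at -0.89 to 0.88 for H19, -1.13 to 0.95 for Igf2, -0.40 to 0.29 for Phlda2, -0.53 to 0.16 for Cdkn1c and -0.15 to 0.16 for Tssc4, and again 0 of the 7 and 0 of 12000 genes passed in limma, with 140 at an unadjusted p under 0.05.

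Between the label forms, 3 of the 7 genes passed (Cdkn1c higher, Phlda2 and Tssc4 lower), where 16.0% of all genes tested passed, 10.2% higher and 5.76% lower in form 2. The median log2 difference was 0.26 over the 7 genes and 0.028 over all genes tested. The forms did not overlap for Cdkn1c, Phlda2 and Tssc4 among the 7 genes, where 26.8% of genes tested were apart, nor for Kcnq1ot1. The ICSI effect did not differ detectably between the forms, with 0 of the 7 genes and 0 of 12000 genes (0.0%) past the threshold for the interaction in limma and 147 genes at an unadjusted p under 0.05. In limma-voom the interaction passed for 0 of 15695 genes, with 168 at an unadjusted p under 0.05. Form and group were balanced, with 2 lines in each combination.

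**Figure D3:**
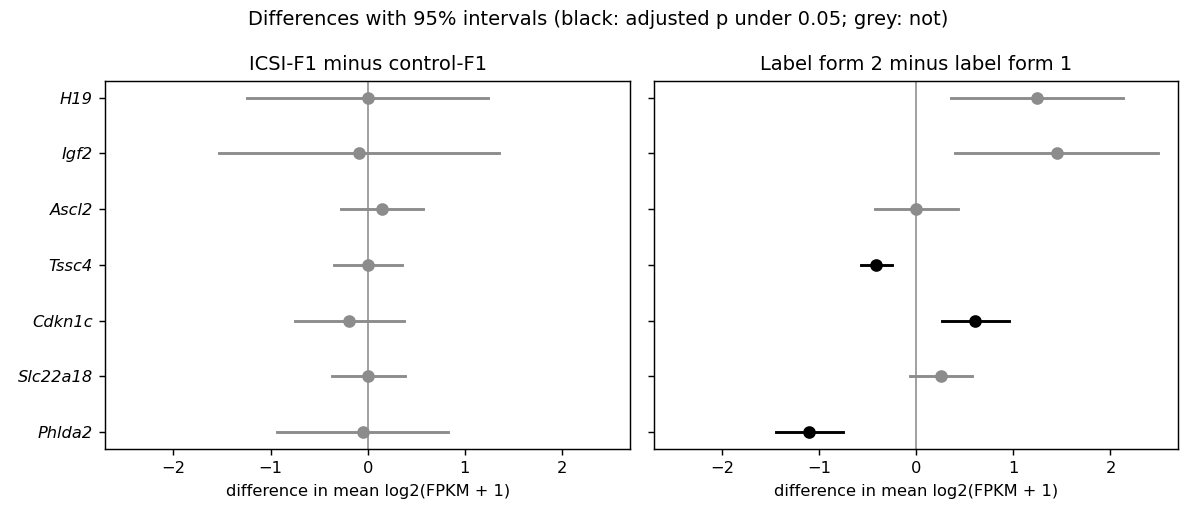
Differences in mean log2(FPKM + 1) with 95% intervals for the 7 genes tested, ordered along the chromosome from H19, between ICSI-F1 and control-F1 (left) and between label forms (right), with black for an adjusted p under 0.05 in limma. All 7 intervals on the left include 0, while Cdkn1c, Tssc4 and Phlda2 are black on the right.

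The label form differences did not run in one direction along the cluster. Within 928 kb, from the end of H19 to the start of Phlda2, the table lists 22 genes, of which 9 were tested: the 7 above, Igf2os and Cd81. Igf2os differed by 0.36 ± 0.17 (SE) and Cd81, a tetraspanin gene at 22.0 to 38.9 FPKM next to Tssc4, by 0.34 ± 0.15 (SE), and neither passed (limma adjusted p = 0.173 and 0.140). Slc22a18, which lies between Cdkn1c and Phlda2, did not pass although both of its neighbours did, in opposite directions. Of a wider list of 21 neighbouring genes that are not among the 9, 13 were tested and 0 passed in either comparison. In limma, 0 of the 13 had an unadjusted p under 0.05 for ICSI and 3 for the form. Over all 12000 genes tested, 0.0% passed for ICSI and 16.0% between forms. An unadjusted p under 0.05 was found for 55 and 4248 of them. The most abundant of the 21 neighbouring genes were Ctsd, a lysosomal protease gene at 291 to 487 FPKM, and Nap1l4, a histone chaperone gene at 102 to 129 FPKM. The insulin gene Ins2 had 0 FPKM in all lines.

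**Figure D4:**
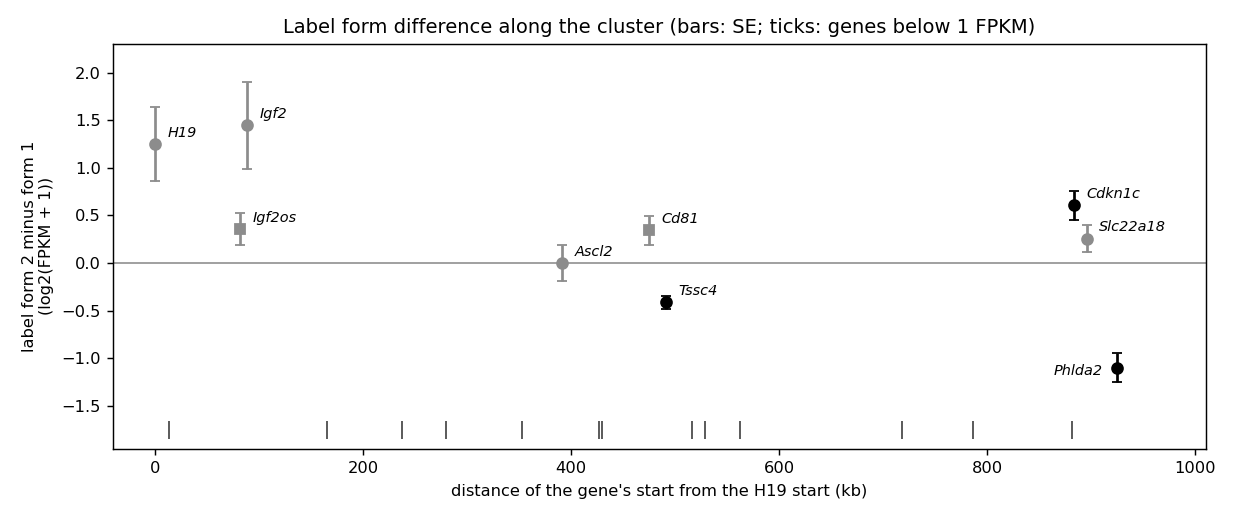
Label form 2 minus label form 1 difference in mean log2(FPKM + 1), with SE bars, against the distance of each gene's start from the H19 start in kb, for genes of the cluster (circles) and 2 other genes tested there (squares), with black for an adjusted p under 0.05 and ticks for genes below 1 FPKM. Cdkn1c at 883 kb and Phlda2 at 925 kb lie close together with opposite signs.

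The receptors and carriers of IGF2 were examined next. Of 20 genes of the insulin-like growth factor pathway, 14 were tested, 0 passed for ICSI (0 at an unadjusted p under 0.05) and 2 were higher and 0 lower in form 2 (10.2% and 5.76% of all genes tested), with a median form difference of 0.31 on the log2 scale against 0.028 over all genes. Those were Igf2r, the receptor that clears IGF2, at 29.6 ± 2.82 and 37.1 ± 1.75 FPKM in forms 1 and 2 (SD, n = 4 each, limma adjusted p = 0.0419), and Irs2, an adaptor of the insulin and IGF1 receptors, at 6.23 ± 1.51 and 15.0 ± 2.00 FPKM (limma adjusted p = 0.00913). The binding proteins Igfbp2 (43.6 FPKM on average) and Igfbp3 (35.1 FPKM) were the most abundant of the list, and neither passed. Among 6 tested genes of 7 cyclin-dependent kinase inhibitors, only Cdkn1c passed between forms, where 16.0% of all genes tested passed. None passed for ICSI, where 0 of 12000 genes did. The most abundant was Cdkn2a at 50.2 FPKM.

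Genes of proteins that set, keep or read imprints were measured in the same lines. Of 21 such genes 19 were tested, 0 passed for ICSI (0 at an unadjusted p under 0.05), and 1 was higher and 6 lower in form 2, where 10.2% and 5.76% of all genes tested were. Rad21, a cohesin subunit that acts with CTCF, was higher, at 134.6 ± 9.84 and 178 ± 9.68 FPKM in forms 1 and 2 (SD, n = 4 each, limma adjusted p = 0.0234). Those lower in form 2 were Zfp57, a zinc finger protein that protects imprints, Dnmt3b and Dnmt3l, of the DNA methylation machinery, Tet3, which oxidizes methylcytosine, Ehmt2, a histone methyltransferase, and Ctcfl, the germline relative of CTCF. Their log2 differences ran from -1.01 for Dnmt3l to -0.38 for Ehmt2 (limma adjusted p = 0.0144 to 0.0469). Trim28, the corepressor that ZFP57 recruits, was at 133 to 162 FPKM and did not pass.

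The labelled cell type was checked against 14 spermatogonial markers, all of which were tested and none of which was at 0. Dazl (257 to 420.4 FPKM) and Ddx4 (173 to 274 FPKM), both germ cell RNA-binding proteins, were the most abundant. The sum of all 14 markers was 983 to 1696 FPKM in control-F1 and 1063 to 1508 FPKM in ICSI-F1, but 983 to 1178 FPKM in form 1 and 1363 to 1696 FPKM in form 2, without overlap. Of the 14 markers, 8 were higher in form 2 and 0 lower (10.2% and 5.76% of all genes tested), among them Etv5 at 1.16 ± 0.15, Cd9 at 0.83 ± 0.16, Dazl at 0.52 ± 0.10, Id4 at 1.11 ± 0.23, Gfra1 at 0.67 ± 0.14 and Ret at 0.66 ± 0.17 (log2 difference ± SE). By contrast 0 of the 22 fibroblast markers tested passed between forms or for ICSI (1 and 0 at an unadjusted p under 0.05). Fn1 (95.3 FPKM on average) and Sparc (88.0 FPKM) were the most abundant of these. Of 10 markers of testis somatic and blood cells, 4 were tested, led by Acta2 (4.54 FPKM) and Sox9 (2.18 FPKM). Sox9 was higher and Wt1 lower in form 2 (limma adjusted p = 0.0242 and 0.0150), and of the Leydig cell genes Star was at 0.594 to 1.77 FPKM, Hsd3b1 at up to 0.331 FPKM, Insl3 at up to 0.0610 FPKM and Cyp17a1 at 0. Their part in the differences of Cdkn1c, Phlda2, Tssc4 and Kcnq1ot1 between forms was not tested.

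Genes with the most similar pattern were ranked by Pearson's r over the 8 lines after removal of the form means, among 11999 others, with no test. For H19 they were Ndn, itself an imprinted gene (r = 0.966), Itm2c (0.961) and Igfbp5 (0.958). Igf2 was closest to Pip4p2 (0.978), Nrm (0.975) and Gdf11 (0.970). For Cdkn1c they were Klhdc1 (0.992), Txlng (0.980) and Dmpk (0.980), and for Phlda2 Polh (0.940), Cinp (0.936) and Gm28875 (0.932). Slc22a18 was closest to Kdelr3 (0.983), Hey1 (0.982) and Gcnt1 (0.975), Ascl2 to Neb (0.986), Ptdss2 (0.980) and Frrs1l (0.977), and Tssc4 to Igf2os (0.984), Gm36028 (0.953) and Magea3 (0.953). The points share library and depth, and the highest r of many genes over 8 lines is high by selection.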

How the data were processed

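RNA-seq of 8 GS cell lines was read from 1 table of FPKM values. The authors trimmed single reads with cutadapt (3.4 for label form 1, 1.16 for form 2, per the submitters' processing notes), mapped them to mm10 with STAR (2.7.9a, 2.6.0c), counted with HTSeq (0.13.5, 0.11.2) and deposited FPKM per gene. The authors' methods list all 8 lines but name only cutadapt 3.4, STAR 2.7.9a and HTSeq 0.13.5. The deposited columns of their own DESeq2 comparison (log2 fold change and adjusted p) were not used. FPKM times the exon length (GENCODE) gave whole reads for 98.25% of genes above 0 (tolerance 0.02 reads), with 24218938 to 43413306 reads per line.

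Genes averaging 1 FPKM or more over the lines were fitted with limma 3.58.1 in R 4.3.3 on log2(FPKM + 1), with trend and Benjamini-Hochberg adjustment over 12000 genes. This pseudocount understates changes of low genes. The ICSI fit had the group as its only term, the form fit added the group, and a further fit their interaction. limma-voom used recovered reads (minimum mean 10 reads). Single genes used exact two-sided permutation tests. Fits were tested on simulated data. The genes named were the 9 of the cluster, list genes past the threshold (up to 6 per list) and the 2 most abundant of each list, genes that passed between the outermost of the 9, and the 3 nearest patterns. Cd81, Ins2, Dnmt3b, Star, Hsd3b1, Cyp17a1 and Insl3 were named outside that rule after their values were seen. The genes and lists were chosen with earlier results of these data known.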

Additional observations from a re-analysis of the deposited data

Results flagged for a closer look

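Igf2 in ICSI-F1 line 20, at 62.8 FPKM, stood far from the other 3 ICSI-F1 lines, which were at 12.9 to 17.2 FPKM. Its gap to the nearest was 0.914 of the range of the group, above Dixon's 95% critical value for 4 samples. It was 1 of 24 groups of values examined in this way, and chance flags about 1 in 20. H19 in the same line was at 261 FPKM.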

How the results depend on the processing

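With no filter on low values, 1 gene outside the cluster passed for ICSI and 1255 passed between label forms, and with the fibroblast score as covariate 3246 genes and 5 of the 7 cluster genes passed between forms. Without each line in turn, the form count ran from 210 to 2691 genes and from 1 to 5 genes of the cluster, against 1917 and 3. It was 210 without ICSI line 11, 287 without control line 37 and 429 without ICSI line 17. Phlda2 passed under each of its alternatives to the FPKM fit, but in limma-voom on at least 10 reads it missed the threshold without any 1 of 3 lines. In that fit, leaving out 1 line gave 3 to 2799 genes and 0 to 6 of 8 cluster genes. Cdkn1c missed the threshold with no filter (adjusted p = 0.0658), as TPM (0.0548) and after quantile normalization (0.0593). The cause was not tested.

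These signs turned, and none of the turned values passed the threshold. For ICSI, H19 gave 1.29e-05 and 0.000239 at pseudocounts of 0.1 and 0.01, 0.017 as TPM, 0.042 after quantile normalization, 0.17 with the fibroblast score and 0.0057 by voom (log2). Igf2 gave 0.085 with the score, Phlda2 0.039 by voom and 0.046 with the lower minimum of 10 reads, and Kcnq1ot1 0.019 with no filter. Between forms, Ascl2 gave -0.023 and -0.028 at pseudocounts of 0.1 and 0.01, -0.061 as TPM, -0.00214 with the score and -0.012 and -0.011 by the voom fits. Leaving out lines, the ICSI difference ran from -0.55 to 0.32 for H19, -0.68 to 0.26 for Igf2, -0.60 to 0.87 for Kcnq1ot1, -0.29 to 0.21 for Phlda2, -0.093 to 0.10 for Slc22a18, -0.011 to 0.28 for Ascl2 and -0.066 to 0.087 for Tssc4, and the form difference of Ascl2 from -0.19 to 0.17. The H19-Igf2 r stayed between 0.963 and 0.987. Quantile normalization split the form calls as 1001 higher and 970 lower, against 1226 and 691.

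No paired analysis was possible because the groups share no replicate numbers. Kcnq1 at 0 to 6 reads was too shallow for comparing groups or forms, and 4 lines per group leave wide intervals for H19 and Igf2.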
